A study of Homo sapiens with 6 samples.

Results

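Untreated T98G cells and T98G cells given a hairpin directed at SRPK1 were compared gene by gene, with attention to whether both hairpin libraries moved the same way. T98G is an established human glioblastoma cell line. Untreated cells (NT) and hairpin cells (shSRPK1) gave 2 libraries each, so the comparison used 4 of the 6 libraries sequenced. The hairpin was cloned into the pLKO.1 plasmid and delivered transiently with Lipofectamine. The other 2 were from cells transfected with an SRPK1 expression vector (oeSRPK1). They entered the filter on low counts, the scaling and the shared estimate of the spread, but not the difference tested. No library of cells given an empty or unrelated vector was used here, so transfection and the hairpin itself cannot be told apart. The submitters call the replicates biological, but nothing says that separate cultures were used. Each p-value therefore measures only how far these libraries spread, which may be technical. Poly(A) RNA was counted per gene, and of 60483 gene identifiers 14732 passed the filter on low counts and were tested.

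SRPK1 is a kinase that phosphorylates serine/arginine-rich (SR) splicing factors and so controls their entry into the nucleus, where the CLK kinases phosphorylate them further. SR proteins bind exons and help the spliceosome choose splice sites, and a hairpin is meant to lower the targeted transcript through RNA interference. Cells also read foreign or double-stranded nucleic acid through cytosolic sensors that switch on interferons, which act through STAT and IRF factors on a large set of antiviral genes, the interferon-stimulated genes. A separate programme, driven by the transcription factor ATF4, raises amino acid synthesis, transport and tRNA charging when amino acids run short or the endoplasmic reticulum is stressed.

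Gene reads came to 9891606 in NT 1, 13634038 in NT 2, 13650909 in shSRPK1 1 and 10792385 in shSRPK1 2, and levels are given as CPM, a gene's reads relative to the library's size after TMM scaling. The hairpin libraries resembled each other less than the untreated ones did. Their counts differed by a chi-square of 40.7 per gene against 4.11 in NT, and 1065 genes against 270 lay more than 2-fold apart within the pair. The oeSRPK1 libraries, which enter the shared spread, stood apart in depth and in markers of muscle: skeletal and cardiac muscle markers summed to 422.7 CPM in oeSRPK1 1 and 3918 in oeSRPK1 2, which had 3891549 gene reads, against 69.1 to 83.8 in the other 4. The part of this in the calls was not tested beyond leaving out each library, below. Fold changes are log2 fold change ± standard error from edgeR's quasi-likelihood test (n = 2 libraries per group), and a gene was called when its Benjamini-Hochberg adjusted p was under 0.05. By that test 800 genes rose (5.43% of those tested) and 552 fell (3.75%), of which 317 and 153 changed at least 2-fold. Counts of rises and falls by list, below, are to be read against these shares, and some lie near them.

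Agreement between the hairpin libraries was read from where each stood against both NT libraries. Both lay above both NT libraries for 4246 genes (28.8%) and below both for 4232 (28.7%). In opposite directions, 1307 genes were above NT in shSRPK1 1 and below it in shSRPK1 2, 1406 were the other way round, and 3541 overlapped NT. All 800 genes that rose and all 552 that fell had both hairpin libraries beyond NT on the same side, which the test itself largely fixes, since it gives a high p to a gene whose hairpin libraries lie on opposite sides of NT. The typical departures of the risen genes were alike, with medians of 0.87 and 0.85 log2 CPM from the NT mean in libraries 1 and 2, and those of the fallen genes were -0.77 and -0.74. The distance between the libraries was under 0.5 log2 for 645 of the risen and 495 of the fallen genes. CPM by total gene counts in place of TMM put 3216 genes above NT in both libraries and 5546 below in both, with a median over all tested genes of -0.10 on the log2 scale.

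**Figure D1:**
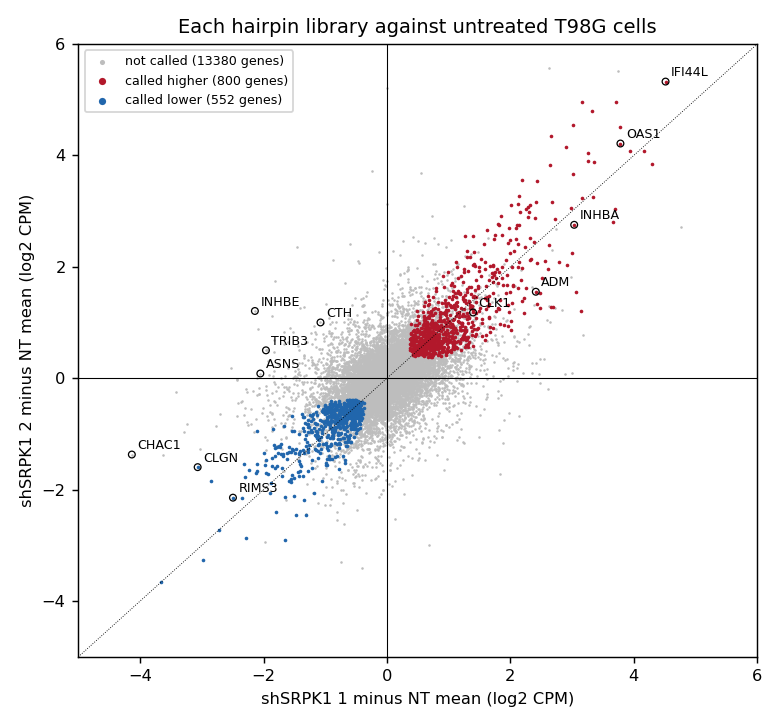
Each point is 1 of 14732 tested genes, placed by the difference of shSRPK1 1 (horizontal) and shSRPK1 2 (vertical) from the mean of the NT libraries in log2 CPM, with genes called higher in red, called lower in blue and not called in grey. Called genes lie in the upper right (800) and lower left (552) along the dotted line of equality, while CTH, INHBE, TRIB3 and ASNS lie at upper left.

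Each hairpin library was also set against NT with the other left out, with the lone library assumed to vary like the other groups. These fits share the NT libraries with each other and a hairpin library with the joint fit, so they are no independent repeat. Far more genes were called that way, 4564 with shSRPK1 1 and 3916 with shSRPK1 2 of 15116 tested, and 143 genes were called in opposite directions. With shSRPK1 1 alone 15.4% were called higher and 14.8% lower, and with shSRPK1 2 alone 13.9% higher and 12% lower. Of the joint calls, 782 of the 800 rises (5.31% of tested genes) and 542 of the 552 falls (3.68%) were called in the same direction with each library alone. The number of joint calls rested on all 6 libraries: it was 1352 in all, 29 without NT 1, 55 without NT 2, 240 without oeSRPK1 1, 263 without oeSRPK1 2 and 129 with the NT and shSRPK1 libraries alone. Among the 1352, 25 genes were called in the same direction in all 15 other fits, 20 higher and 5 lower. Every other called gene named below lost its call in at least 1 of those fits.

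**Figure D2:**
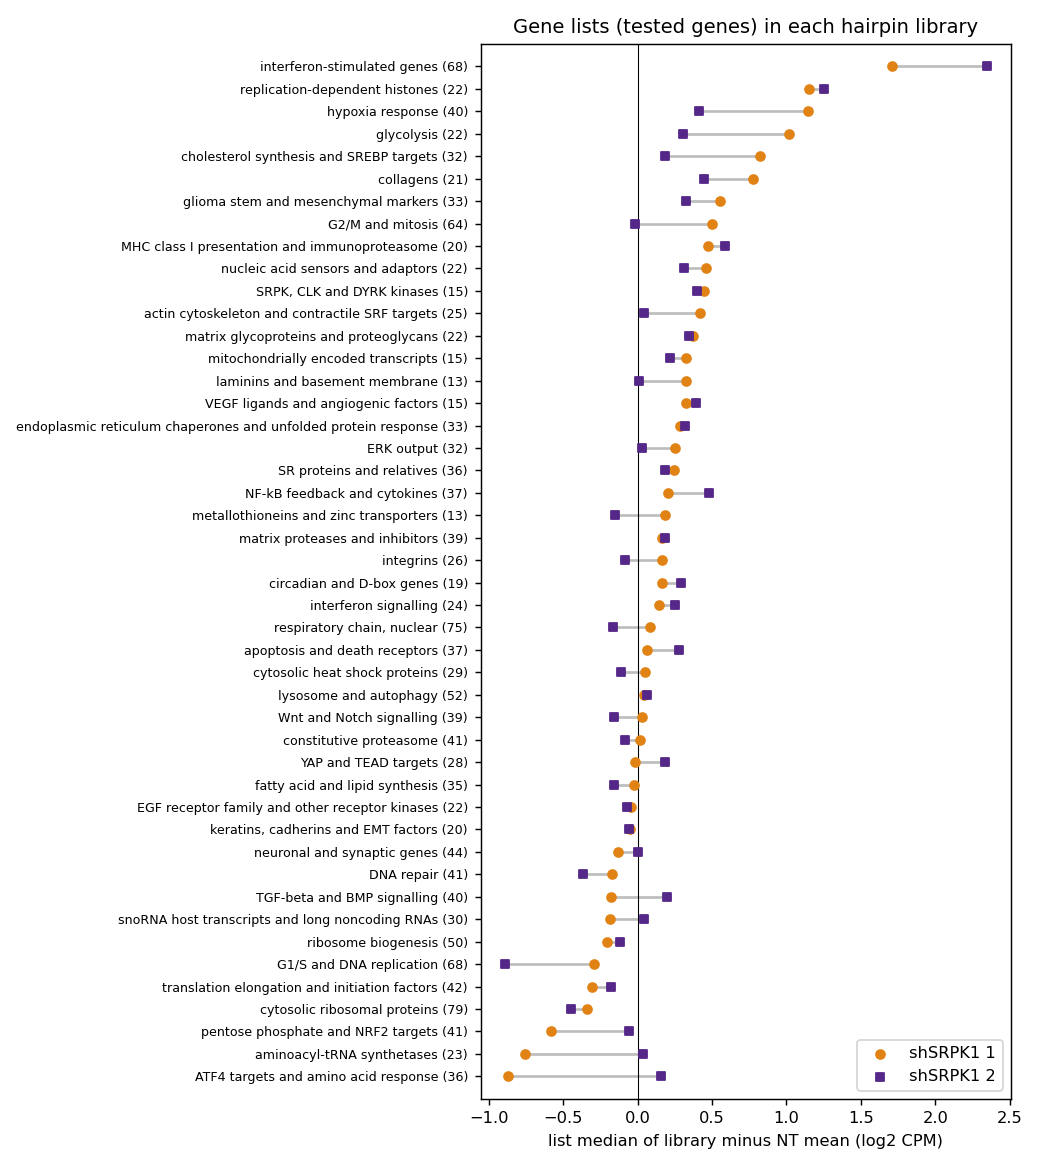
Each line is a list of genes of 1 function, drawn for lists with at least 10 tested genes except 1 that is not shown (number in parentheses), and shows the median over the list of shSRPK1 1 (orange circle) and shSRPK1 2 (purple square) minus the NT mean in log2 CPM. Interferon-stimulated genes lie to the right in both libraries and ribosomal proteins to the left in both, while ATF4 targets, aminoacyl-tRNA synthetases and G2/M genes lie far apart between them.

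The targeted transcript itself was little lower and not equally so in both libraries. SRPK1 (ENSG00000096063.13, GRCh38 chromosome 6, 35832966 to 35921342, minus strand) stood at 153 and 140.4 CPM in NT against 113 and 140.1 in shSRPK1 (-0.21 ± 0.14, edgeR adjusted p = 0.360). Library 1 lay below both untreated libraries and library 2 lay level with NT 2. SRPK1 was called lower with shSRPK1 1 alone (-0.37, adjusted p = 0.0208) but not with shSRPK1 2 alone (-0.06, adjusted p = 0.739). Its paralogue SRPK2 had 69.03 and 65.4 CPM in NT against 66.5 and 86.1 in shSRPK1 (0.18 ± 0.14, edgeR adjusted p = 0.427), with a departure of -0.01 in library 1 and 0.36 in library 2. The 4 CLK kinases, which phosphorylate the same factors inside the nucleus, all rose. CLK1 went from 72.3 and 86.6 to 208 and 179.6 CPM (1.29 ± 0.14, edgeR adjusted p = 0.00396). The others showed 0.84 ± 0.18 for CLK3, 0.70 ± 0.16 for CLK2 and 0.56 ± 0.14 for CLK4 (adjusted p = 0.0276, 0.0368 and 0.0485). Each CLK transcript was higher in library 1 than in library 2, by the widest distance in CLK3, at 137 and 92.95 CPM against 63.3 and 65.1 in NT. With PRPF4B, a kinase of pre-mRNA splicing factors (0.47 ± 0.11, edgeR adjusted p = 0.0382), 5 of 15 tested SRPK, CLK and DYRK kinases rose and 0 fell. The median of this list was 0.38, against 0.01 over all tested genes, and CLK1 alone of the 5 was still called with the NT and shSRPK1 libraries only.

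Among 36 tested SR proteins and their relatives, the substrates of these kinases, 5 rose and 1 fell, with list medians of 0.24 and 0.19 in the hairpin libraries. SRSF1, the founding SR protein, had 209 and 226 CPM in NT against 348 and 321 in shSRPK1 (0.62 ± 0.12, edgeR adjusted p = 0.0217). LUC7L3, a relative of a component of the U1 particle, went from 461 and 525 to 862 and 808 CPM (0.76 ± 0.13). LUC7L, of the same family, went from 39.6 and 44.3 to 66.98 and 77.4 CPM (0.78 ± 0.13). SCAF4 and CLASRP, which carry serine/arginine-rich stretches, rose by 0.74 ± 0.13 and 0.85 ± 0.16. SRSF8 was the one to fall, from 16.1 and 16.9 to 10.1 and 9.47 CPM (-0.75 ± 0.15, edgeR adjusted p = 0.0254). In each of these 6 genes the hairpin libraries lay on the same side of NT. None of the 6 was called with the NT and shSRPK1 libraries only.

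Interferon-stimulated genes made up the largest rises, and 14 of the 15 genes with the largest rise belong to that list. Of 68 tested members 62 rose and 0 fell, with a list median of 2.04, and 66 lay above both NT libraries in both hairpin libraries. The count was 60 with shSRPK1 1 alone and 63 with shSRPK1 2 alone. It was 31 with the NT and shSRPK1 libraries only, 17 without NT 1 and 23 without NT 2. Many of these genes carry, near their start, the interferon-stimulated response element to which a complex holding STAT2 and IRF9 binds. The letters GAAANNGAAA were searched on both strands from 250 bases before to 50 bases after the start. They were found in 33 of 53 list members with a promoter in RefSeq (62.3%). By the same search they were in 9.62% of 582 genes that rose, in 1.85% of 432 that fell and in 2.83% of the 10719 tested genes with one. Most list members are among the genes that rose, so the share in those genes overlaps that of the list and is no separate support. The stretches below are from list members with a match whose values are given next, and capitals mark a match on either strand. Each is 80 bases upstream of the start, read 5′ to 3′ along the gene, from RefSeq on GRCh38.p14. They are from IFI44L (chr1:78620340-78620419, plus strand), IFIT1 (chr10:89392485-89392564, plus strand), OAS3 (chr12:112938394-112938473, plus strand) and IFITM3 (chr11:320861-320940, minus strand).
IFI44L: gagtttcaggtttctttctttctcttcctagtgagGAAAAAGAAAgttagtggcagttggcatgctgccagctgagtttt
IFIT1: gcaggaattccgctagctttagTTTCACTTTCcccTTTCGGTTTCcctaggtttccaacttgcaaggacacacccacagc
OAS3: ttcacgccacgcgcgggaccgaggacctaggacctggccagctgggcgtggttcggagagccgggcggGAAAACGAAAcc
IFITM3: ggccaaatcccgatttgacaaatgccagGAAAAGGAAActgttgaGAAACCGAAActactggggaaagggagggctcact

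The genes with these stretches rose in both libraries to different degrees. IFI44L had 11.9 and 37.01 CPM in NT against 484 and 850.0 in shSRPK1 (4.75 ± 0.63, edgeR adjusted p = 0.0204). IFIT1, which binds foreign RNA caps, had 9.81 and 23.6 CPM in NT against 201 and 476 in shSRPK1 (4.32 ± 0.62, edgeR adjusted p = 0.0245). In both of these the second hairpin library was the higher, and neither gene was among the rises called with each hairpin library alone. OAS3, a sensor of double-stranded RNA that feeds RNase L, had 58.6 and 94.6 CPM in NT against 758 and 713 in shSRPK1 (3.26 ± 0.24, edgeR adjusted p = 0.00124). IFITM3, which blocks virus entry at membranes, had 251 and 323 CPM in NT against 1434 and 1249 in shSRPK1 (2.22 ± 0.17, edgeR adjusted p = 0.00124). In OAS3 and IFITM3 the first hairpin library was the higher, and in none of the 4 genes did a hairpin library come near NT. NT was uneven as well. NT 2 exceeded NT 1 for 58 of the 68 genes, against 50.5% of all tested genes, and shSRPK1 2 exceeded shSRPK1 1 for 58.

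Library 2 departed more from NT over the list, with medians of 1.71 in shSRPK1 1 and 2.34 in shSRPK1 2. Called genes with the widest distance between the hairpin libraries included 6 from this list, CMPK2, OASL, IFIT3, MX2, XAF1 and RTP4, each higher in shSRPK1 2. IFIT3 had 115 and 371 CPM in them over 14.8 and 22.2 in NT, and the pro-apoptotic XAF1 had 245 and 637 over 43.1 and 67.1. The 6 members that were not called were NMI, ZNFX1, IFIT2, RSAD2, RBCK1 and APOL6. IFIT2 had 10.9 and 17.4 CPM in NT against 85.7 and 663 in shSRPK1 (4.71 ± 1.17, edgeR adjusted p = 0.0917), with both hairpin libraries above NT but far from each other. RBCK1 and APOL6 were below NT in library 1 and above it in library 2.

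Of the 20 higher genes called in every fit, 13 were in this list: OAS1, OAS2, OAS3, IFI44, ISG15, MX1, EPSTI1, IFITM3, BST2, PARP9, PARP10, TRIM5 and TRIM14. OAS1 had 15.9 and 27.8 CPM in NT against 292 and 393 in shSRPK1 (3.96 ± 0.29, edgeR adjusted p = 0.00183). The ubiquitin-like modifier ISG15 had 31.3 and 50.1 CPM in NT against 262 and 288 in shSRPK1 (2.75 ± 0.22, edgeR adjusted p = 0.00156). TRIM5, a restriction factor of retroviral capsids, showed a smaller rise in closer libraries, with 46.02 and 48.3 CPM in NT against 131 and 144 in shSRPK1 (1.55 ± 0.11, edgeR adjusted p = 0.00124). The other 7 were IRF7, SAMHD1, INHBA, VEGFC, TENT5A, ARRDC3 and the long noncoding RNA AC116407.2.

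Several factors that relay interferon signals rose, while the interferons themselves were barely read. Of 24 tested genes of interferon signalling 7 rose and 0 fell (list median 0.14). IRF7, which amplifies interferon production, had 8.16 and 11.6 CPM in NT against 62.7 and 87.98 in shSRPK1 (2.92 ± 0.23, edgeR adjusted p = 0.00145). IRF9, the DNA-binding partner of STAT2, had 2.23 and 3.32 CPM in NT against 14.05 and 22.7 in shSRPK1 (2.69 ± 0.31, edgeR adjusted p = 0.00474). In IRF7 and IRF9 both hairpin libraries were far above NT, and shSRPK1 2 was the higher. STAT2 had 78.3 and 90.04 CPM in NT against 242 and 369 in shSRPK1 (1.86 ± 0.20, edgeR adjusted p = 0.00441). It was higher in shSRPK1 2 than in shSRPK1 1. IFNB1, which stayed under the filter, counted 1 read in each NT library and 3 and 8 in the hairpin libraries. IFNL1 counted 0 in each NT library and then 3 and 6. IFNE counted 4 and 2 in NT, and 22 and 32 with the hairpin. It is among the 7 called, though itself an interferon. With so few NT reads it passed the filter only through libraries where it was higher, so its call is no support. No read of IFNA1, IFNA2 or IFNG was counted in these 4 libraries, and 0 reads still allow up to 0.303 CPM in NT 1, the shallowest of them, counting error only.

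In a list of nucleic acid sensors, adaptors and related genes 5 of 22 tested rose and 0 fell. The 5 were SAMHD1, AIM2, NLRC5, MYD88 and IKBKE, so not all are sensors. SAMHD1, which depletes nucleotides and restricts retroviruses, went from 39.03 and 46.5 to 202 and 219 CPM (2.30 ± 0.15, edgeR adjusted p = 0.00124). AIM2, a DNA sensor, went from 3.59 and 4.66 to 10.5 and 11 CPM (1.36 ± 0.19), and the adaptor MYD88 from 32.3 and 33.5 to 54.98 and 72.7 CPM (0.95 ± 0.15). Antigen presentation through MHC class I gave 8 rises and 1 fall among 20 genes. HLA-B was at 146 and 162 CPM in NT against 308 and 309 in shSRPK1 (1.004 ± 0.12, edgeR adjusted p = 0.00552). The peptide transporter TAP1 had 58.5 and 66.2 CPM in NT against 129.8 and 166 in shSRPK1 (1.25 ± 0.15, edgeR adjusted p = 0.00586). B2M, the shared light chain, had 1448 and 1570.2 CPM in NT against 2853 and 2464 in shSRPK1 (0.82 ± 0.15, edgeR adjusted p = 0.0196). HLA genes are near-identical to each other in part, so reads can be split among them. NLRC5, their activator, rose by 1.66 ± 0.23. ERAP1, which trims peptides for loading, fell in both libraries, from 229 and 210.3 to 137 and 133 CPM (-0.70 ± 0.12, edgeR adjusted p = 0.0176).

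Guanylate-binding proteins, GTPases that interferon gamma induces most, differed between the hairpin libraries. GBP1 was the one called among 5, at 39.5 and 42.3 CPM in NT against 88.8 and 173 in shSRPK1 (1.68 ± 0.30, edgeR adjusted p = 0.0258). The list median was 0.17 in shSRPK1 1 and 1.21 in shSRPK1 2. GBP3 had 45.9 and 50.4 CPM in NT against 54.1 and 111 in shSRPK1, so library 1 was near NT. In all, 5 of 5 were called higher with shSRPK1 2 alone against 1 with shSRPK1 1 alone. NF-kB feedback genes and cytokines gave 7 rises and 0 falls among 37. Of the 7, CCL5 counted 2 and 3 reads in NT, and 36 and 30 with the hairpin. It passed the filter only through libraries where it was higher, so its call is no support. CXCL8, the neutrophil chemokine, had 27.2 and 40.5 CPM in NT against 101 and 141 in shSRPK1 (1.83 ± 0.24, edgeR adjusted p = 0.00983). PTGS2, which makes prostaglandins, had 30 and 39.2 CPM in NT against 70.3 and 65.4 in shSRPK1 (0.97 ± 0.15, edgeR adjusted p = 0.0126). TNFAIP3, a brake on NF-kB, and the adhesion molecule ICAM1 also rose, by 1.05 ± 0.21 and 0.87 ± 0.19, and both were higher in library 1, unlike CXCL8.

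The ATF4 programme split the hairpin libraries. Of 36 tested ATF4 targets and amino acid response genes 1 rose and 0 fell in the joint test, against 5.43% and 3.75% of all tested genes. The list median was -0.87 in library 1 and 0.15 in library 2, and 22 genes lay below NT in library 1 and above it in library 2, against 9.54% of all tested genes. In 8 genes the fits with either library alone gave opposite calls. Library 2 exceeded library 1 for 34 of the 36, and the exceptions were VLDLR and ALDH18A1. NT 2 exceeded NT 1 for 9 of the 36, so the untreated libraries differed over this list in the other order.

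Named members show the size of the split. ASNS, which makes asparagine, had 662 and 591 CPM in NT against 151 and 663 in shSRPK1 (-0.62 ± 0.66, edgeR adjusted p = 0.588). Library 1 held a small part of the untreated level and library 2 matched it. TRIB3, a pseudokinase that feeds back on ATF4, was at 269 and 239.9 CPM in NT against 65.1 and 359 in shSRPK1 (-0.26 ± 0.77, edgeR adjusted p = 0.858). CTH, which makes cysteine, had 28.3 and 22.5 CPM in NT against 11.9 and 50.6 in shSRPK1 (0.29 ± 0.65, edgeR adjusted p = 0.812). In TRIB3 and CTH the hairpin libraries lay to either side of NT. The same held for the stress factor ATF3, at 32.4 and 31.4 CPM in NT against 19.7 and 64.5 in shSRPK1 (0.39 ± 0.54, edgeR adjusted p = 0.685). It also held for DDIT3, at 110.0 and 110.2 CPM in NT against 67.97 and 167 in shSRPK1 (0.09 ± 0.39, edgeR adjusted p = 0.902). CHAC1, which breaks down glutathione, was below NT in both, at 55.1 and 53.6 CPM in NT against 2.95 and 20.9 in shSRPK1, and with the hairpin libraries far apart it was not called (-2.23 ± 0.80, edgeR adjusted p = 0.158). ATF4 itself was below NT in both as well, at 655 and 663 CPM in NT against 297 and 512 in shSRPK1 (-0.71 ± 0.23, edgeR adjusted p = 0.0990). DDIT4, an inhibitor of mTORC1 that other stresses also induce, was the one member called, at 554 and 550.1 CPM in NT against 852 and 1008 in shSRPK1 (0.75 ± 0.14, edgeR adjusted p = 0.0211).

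Aminoacyl-tRNA synthetases, which charge tRNAs and are in part ATF4 targets, were also mostly lower in library 1. Of 23 tested, 6 lay below NT in both hairpin libraries, against 28.7% of all tested genes. Another 7 lay below NT in library 1 and above it in library 2, against 9.54%, and the medians were -0.75 and 0.03. In the joint test 0 rose and 1 fell, the leucine enzyme LARS1, at 277 and 236 CPM in NT against 137 and 165 in shSRPK1 (-0.77 ± 0.14, edgeR adjusted p = 0.0206). MARS1, the methionine enzyme, had 313 and 285 CPM in NT against 137 and 336 in shSRPK1 (-0.34 ± 0.39, edgeR adjusted p = 0.612). WARS1, the tryptophan enzyme, had 283 and 268 CPM in NT against 163 and 441 in shSRPK1 (0.13 ± 0.43, edgeR adjusted p = 0.870). WARS1 is also known as an interferon target, and it was above NT in library 2 but below NT in library 1. TGATGNAA is a form of the element that ATF4 binds with C/EBP partners. By the same search on both strands it was present in 6 of 30 ATF4 list promoters and 6 of 19 synthetase promoters, against 1.69% of tested genes. Among called genes it was in 0.86% of those that rose and 1.85% of those that fell, so neither share was far from that of tested genes. The stretches below show it in capitals in genes that differed widely between the hairpin libraries. They are laid out like those of the interferon genes and come from CHAC1 (chr15:40953226-40953305, plus strand), ASNS (chr7:97872433-97872512, minus strand), ATF3 (chr1:212565180-212565259, plus strand), IARS1 (chr9:92293698-92293777, minus strand) and AARS1 (chr16:70289650-70289729, minus strand).
CHAC1: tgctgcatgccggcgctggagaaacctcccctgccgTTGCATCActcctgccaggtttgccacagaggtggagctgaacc
ASNS: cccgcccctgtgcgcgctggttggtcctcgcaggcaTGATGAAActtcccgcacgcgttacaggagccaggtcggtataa
ATF3: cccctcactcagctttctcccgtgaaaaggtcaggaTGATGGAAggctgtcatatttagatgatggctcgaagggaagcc
IARS1: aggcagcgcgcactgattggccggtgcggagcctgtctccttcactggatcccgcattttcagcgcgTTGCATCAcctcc
AARS1: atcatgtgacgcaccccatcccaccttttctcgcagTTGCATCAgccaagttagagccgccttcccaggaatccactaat
A match here is a description of the sequence, and no binding was measured.

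**Figure D3:**
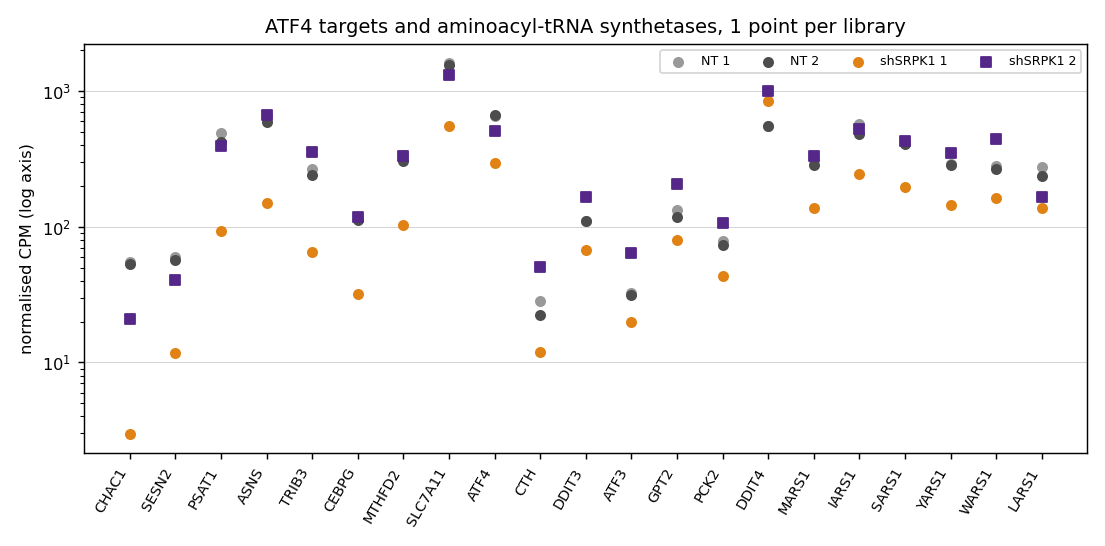
Normalised CPM on a log axis in each of the 4 libraries for 15 ATF4 targets and 6 aminoacyl-tRNA synthetases. In most genes shSRPK1 1 (orange) lies below both NT points while shSRPK1 2 (purple) lies near or above them, whereas in DDIT4 both lie above NT and in LARS1 both lie below.

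Other metabolic programmes differed between the hairpin libraries too. NRF2 targets and pentose phosphate enzymes, which supply reducing power, had medians of -0.58 and -0.06. Of 41 tested, 21 lay below NT in both hairpin libraries, against 28.7% of all tested genes. Another 11 lay below NT in library 1 and above it in library 2, against 9.54%. In the joint test 0 rose and 2 fell, ABCC2 and CBR3. GCLM, a subunit of the enzyme that starts glutathione synthesis, had 307 and 291 CPM in NT against 129 and 352 in shSRPK1 (-0.32 ± 0.46, edgeR adjusted p = 0.694). Of 75 nuclear genes of the respiratory chain, 25 lay above NT in library 1 and below it in library 2, against 8.87% of all tested genes. With library 1 alone 16 were called higher (15.4% over all genes) and with library 2 alone 13 lower (12%), so those counts were near the background.

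Of 40 tested genes of the hypoxia response 14 rose and 1, CA12, fell, and the medians were 1.15 in shSRPK1 1 and 0.41 in shSRPK1 2. ADM, a vasodilator peptide, had 118 and 146 CPM in NT against 698 and 385 in shSRPK1 (2.04 ± 0.28, edgeR adjusted p = 0.0118). The glucose transporter SLC2A3 had 76.3 and 90.9 CPM in NT against 379.6 and 217 in shSRPK1 (1.84 ± 0.26, edgeR adjusted p = 0.0118). Both were highest in shSRPK1 1. BHLHE40, a repressor also active in the circadian clock, had 28.6 and 32.3 CPM in NT against 232 and 125 in shSRPK1 (2.55 ± 0.28, edgeR adjusted p = 0.00753). CA9, a membrane carbonic anhydrase often used as a hypoxia marker, stood at 43.7 and 68.2 CPM in NT against 296 and 137 in shSRPK1 (1.95 ± 0.41, edgeR adjusted p = 0.0439). Library 1 exceeded library 2 for 35 of the 40 genes, and 31 were called higher with it alone against 21 with shSRPK1 2 alone. NT 2 exceeded NT 1 for 36 of them, so the untreated libraries differed in this list too. With the NT and shSRPK1 libraries only 1 member was called, and without NT 1 or without NT 2 the count was 0.

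Glycolysis genes gave 3 rises among 22 (SLC2A3, GPI and PGK1) with medians of 1.02 and 0.30. SLC2A3, a transporter and no enzyme, is counted in the hypoxia list as well. PGK1 had 1297 and 1683 CPM in NT against 3575 and 2234 in shSRPK1 (0.96 ± 0.24, edgeR adjusted p = 0.0474), and library 1 was the higher one for 21 of the 22. NT 2 exceeded NT 1 for 18 of the 22, so the untreated libraries were uneven here too. Cholesterol synthesis and SREBP target genes gave 10 rises and 0 falls among 32, with medians of 0.82 and 0.19. STARD4, a carrier of cholesterol, had 11.2 and 17.2 CPM in NT against 85.3 and 54.2 in shSRPK1 (2.29 ± 0.27, edgeR adjusted p = 0.00796). HMGCS1, which starts the mevalonate pathway, had 66.4 and 70.9 CPM in NT against 186 and 119 in shSRPK1 (1.16 ± 0.22, edgeR adjusted p = 0.0250). The regulator SREBF2 had 73.01 and 75 CPM in NT against 158 and 124 in shSRPK1 (0.93 ± 0.14, edgeR adjusted p = 0.00995). INSIG1, which holds SREBP back in the membrane, was above NT in both but at 242 and 78.8 CPM against 30.4 and 37.4 in NT, and was not called (2.24 ± 0.54, edgeR adjusted p = 0.0703). SCD, a fatty acid desaturase controlled by SREBP, rose by 1.64 ± 0.24, whereas CPT1A and DGAT2, of fatty acid oxidation and storage, fell (-0.77 ± 0.13 and -1.56 ± 0.29).

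Of 33 tested genes in a list of endoplasmic reticulum chaperones and the unfolded protein response, 8 rose and 1, SEL1L, fell. The medians were alike, at 0.28 and 0.32. HSPA5, the main chaperone there, had 2177 and 2156 CPM in NT against 3667 and 3738 in shSRPK1 (0.77 ± 0.14, edgeR adjusted p = 0.0190), with both hairpin libraries nearly equal. HSP90B1, its partner of the HSP90 family, had 1599.9 and 1632 CPM in NT against 3727 and 2644 in shSRPK1 (0.98 ± 0.18, edgeR adjusted p = 0.0211), with library 1 higher. Of cytosolic heat shock genes 3 of 29 rose, led by HSPA6, an inducible HSP70, at 2.91 and 3.04 CPM in NT against 39.4 and 21.7 in shSRPK1 (3.36 ± 0.33, edgeR adjusted p = 0.00369).

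Cell cycle genes differed from NT by different amounts in the hairpin libraries. In counts over a whole culture, fewer cells in a phase and less RNA per cell cannot be told apart. G1/S and DNA replication genes gave 0 rises and 10 falls among 68, with medians of -0.29 in shSRPK1 1 and -0.89 in shSRPK1 2, and 59 were called lower with library 2 alone against 25 with library 1 alone. UNG, which removes uracil from DNA, had 49.5 and 41.5 CPM in NT against 23.9 and 21.4 in shSRPK1 (-1.0 ± 0.14, edgeR adjusted p = 0.00983). It had both hairpin libraries close together. PCNA, the sliding clamp, had 219 and 192 CPM in NT against 128 and 92.4 in shSRPK1 (-0.90 ± 0.18, edgeR adjusted p = 0.0269). MCM5, a subunit of the replicative helicase, had 98.5 and 81.99 CPM in NT against 82.2 and 20.5 in shSRPK1 (-0.80 ± 0.61, edgeR adjusted p = 0.447), near NT in library 1 and far below it in library 2. NT 2 exceeded NT 1 for 2 of these 68 genes, so the untreated libraries also differed over this list. E2F sites with the letters TTTCCCGC were present in 13 of 52 list promoters, against 2.69% of tested genes.

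G2/M and mitosis genes rose in 6 of 64 and fell in 0, with medians of 0.50 and -0.02. PLK1, a mitotic kinase, had 22.9 and 22.6 CPM in NT against 44.9 and 34.8 in shSRPK1 (0.81 ± 0.16, edgeR adjusted p = 0.0252). CCNB1, the mitotic cyclin, had 75.1 and 64.1 CPM in NT against 111 and 93.5 in shSRPK1 (0.56 ± 0.14, edgeR adjusted p = 0.0458). The condensin subunit SMC4 had 177 and 164 CPM in NT against 271 and 253 in shSRPK1 (0.62 ± 0.12, edgeR adjusted p = 0.0209). Library 1 exceeded library 2 for 61 of the 64. NT 2 exceeded NT 1 for only 8 of the 64, so the untreated libraries differed over this list in the same order. With shSRPK1 1 alone 36 were called higher, against 15.4% of all genes. With shSRPK1 2 alone 8 were called higher and 9 lower, near the shares of 13.9% and 12% over all genes. MKI67, the proliferation marker, had 129 and 92.4 CPM in NT against 181 and 103 in shSRPK1 and was not called (0.36 ± 0.28, edgeR adjusted p = 0.440). CCND1, the cyclin that opens G1, fell from 322 and 288 to 211 and 146 CPM (-0.77 ± 0.18, edgeR adjusted p = 0.0377), and was lower in library 2.

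DNA repair genes gave 0 rises and 6 falls among 41 (medians -0.17 and -0.37). PARP1, which marks DNA breaks, had 214 and 195 CPM in NT against 137 and 110.4 in shSRPK1 (-0.73 ± 0.14, edgeR adjusted p = 0.0211). The mismatch repair genes PMS2 and MSH3 fell (-0.72 ± 0.16 and -0.57 ± 0.14). ZMAT3, an RNA-binding protein, had 114 and 106 CPM in NT against 33.2 and 48.4 in shSRPK1 (-1.44 ± 0.18, edgeR adjusted p = 0.00722), and the nuclease AEN and the ribonucleotide reductase subunit RRM2B fell (-0.78 ± 0.14 and -0.64 ± 0.14). CDKN1A, an inhibitor of cyclin-dependent kinases, had 59.6 and 67.6 CPM in NT against 66.8 and 80.3 in shSRPK1 and was not called (0.21 ± 0.13, edgeR adjusted p = 0.340).

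Histone transcripts gave 7 rises and 0 falls among 22 tested, with medians of 1.15 and 1.25. The rises numbered 4 with a minimum CPM of 5 in 2 libraries. H1-4 counted 1 and 4 reads in NT, and 16 and 29 with the hairpin. H3C10 counted 6 and 11 in NT, and 38 and 33 with the hairpin. Both are among the 7 but passed the filter only through libraries where they were higher, so their calls are no support. H2AC6 had 21.2 and 29.2 CPM in NT against 65.4 and 102 in shSRPK1 (1.73 ± 0.24, edgeR adjusted p = 0.0105). Most histone mRNAs are not polyadenylated, and their genes share sequence closely, so the counts in a poly(A) library are uncertain.

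Many genes of the translation machinery were lower in both libraries. Of 79 cytosolic ribosomal proteins 0 rose and 24 fell, 65 lay below NT in both hairpin libraries, and the medians were -0.34 and -0.44. Library 1 exceeded library 2 for 68 of the 79, and 45 were called lower with library 1 alone against 57 with library 2 alone. RPLP0, of the ribosomal stalk, had 1342 and 1270.2 CPM in NT against 673 and 648 in shSRPK1 (-0.98 ± 0.13, edgeR adjusted p = 0.00796). RPS12 had 449 and 445 CPM in NT against 274 and 259.5 in shSRPK1 (-0.74 ± 0.12, edgeR adjusted p = 0.0147). RPL9 had 662 and 577 CPM in NT against 347 and 358 in shSRPK1 (-0.81 ± 0.13, edgeR adjusted p = 0.0147). Ribosomal protein genes have many processed pseudogenes, so some reads may be lost or split. The list median was -0.37 under TMM and DESeq2 size factors alike and -0.47 under total gene counts. The number that fell was 10 with a replicate block, 1 without oeSRPK1 1 and 1 without oeSRPK1 2. It was 0 without NT 1, without NT 2 and with the NT and shSRPK1 libraries only.

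Translation factors gave 0 rises and 6 falls among 42, with medians of -0.31 and -0.18. EEF1A1, which brings tRNAs to the ribosome, had 6479.5 and 6264 CPM in NT against 2918 and 3025 in shSRPK1 (-1.10 ± 0.14, edgeR adjusted p = 0.00772). Its exchange factor EEF1B2 had 255 and 229 CPM in NT against 96.5 and 113 in shSRPK1 (-1.21 ± 0.13, edgeR adjusted p = 0.00396). EIF4B, a helper of the cap-binding complex, had 527 and 536 CPM in NT against 326 and 337 in shSRPK1 (-0.68 ± 0.12, edgeR adjusted p = 0.0170). EEF1A1 fell to near the same level in both libraries. TPT1, EIF3L and EIF4E also fell (-0.64 ± 0.15, -0.78 ± 0.11 and -0.48 ± 0.11). Host transcripts of small nucleolar RNAs, which guide the modification of ribosomal RNA, and other long noncoding RNAs gave 6 falls and 2 rises among 30. GAS5 had 519 and 525 CPM in NT against 203 and 323 in shSRPK1 (-0.99 ± 0.20, edgeR adjusted p = 0.0274). SNHG5 had 142 and 128 CPM in NT against 78.4 and 75.8 in shSRPK1 (-0.81 ± 0.11, edgeR adjusted p = 0.00940). SNHG29 had 511 and 484 CPM in NT against 196 and 258 in shSRPK1 (-1.13 ± 0.15, edgeR adjusted p = 0.00887), and SNHG32, SNHG8 and NORAD fell too. SNHG12 and NEAT1, of the nuclear paraspeckle, were the 2 that rose.

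**Figure D4:**
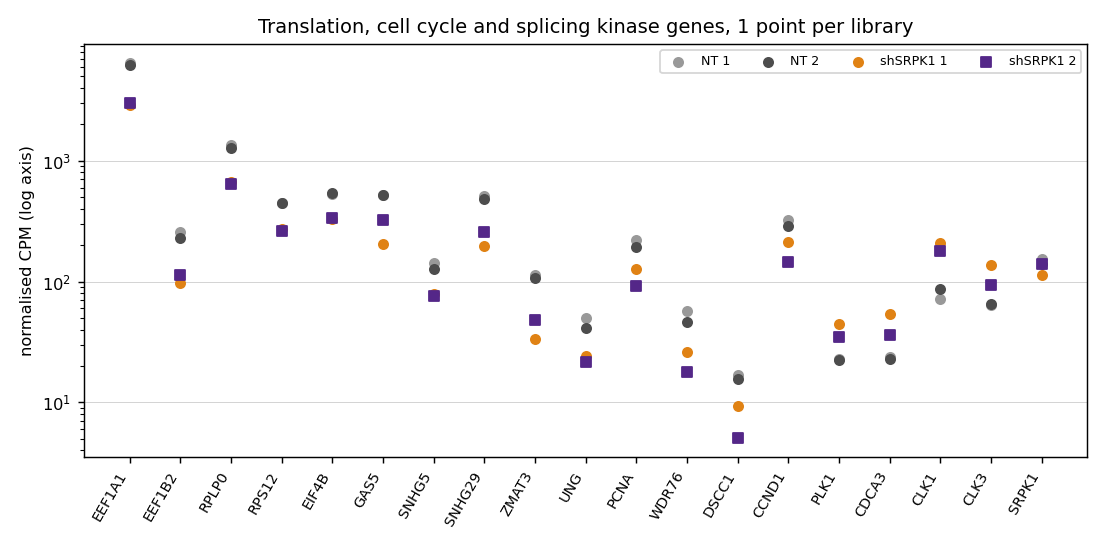
Normalised CPM on a log axis in each of the 4 libraries for translation, noncoding host, cell cycle and splicing kinase genes. From EEF1A1 to SNHG29 both hairpin points lie below NT, from UNG to CCND1 the purple point of shSRPK1 2 is the lower one, and at the right end SRPK1 has shSRPK1 2 level with NT while CLK1 and CLK3 lie above it.

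Several collagen, matrix and growth factor genes rose. Collagens gave 7 rises and 0 falls among 21, with medians of 0.78 and 0.45, and the rises numbered 4 with the NT and shSRPK1 libraries only, 0 without NT 1 and 2 without NT 2. COL5A1, which starts fibril assembly, had 551 and 619 CPM in NT against 1790.4 and 1537 in shSRPK1 (1.51 ± 0.15, edgeR adjusted p = 0.00340). COL7A1, of anchoring fibrils, had 407 and 466 CPM in NT against 1308 and 1181 in shSRPK1 (1.51 ± 0.14, edgeR adjusted p = 0.00271). COL8A1 had 43.1 and 49.9 CPM in NT against 126 and 158 in shSRPK1 (1.61 ± 0.15, edgeR adjusted p = 0.00264). In these collagens both hairpin libraries lay far above NT. Matrix glycoproteins gave 7 rises and 0 falls among 22, among them SPARC, at 1385 and 1594 CPM in NT against 3881 and 2663 in shSRPK1 (1.14 ± 0.20), and TNC, at 17.5 and 21.3 CPM in NT against 48.1 and 38.4 in shSRPK1 (1.16 ± 0.19). Of matrix proteases and inhibitors 5 rose and 3 fell among 39. SERPINB2, which rose, counted 3 and 9 reads in NT, and 34 and 23 with the hairpin. PAPPA2, which fell, counted 24 and 32 in NT, and 2 and 1 with the hairpin. Each passed the filter only through libraries where it was higher, so neither call is support. MMP13, a collagenase, had 33.3 and 41.6 CPM in NT against 135 and 283 in shSRPK1 (2.48 ± 0.35, edgeR adjusted p = 0.0170) with library 2 far above library 1. TIMP1, which inhibits such enzymes, had 98.3 and 122 CPM in NT against 229 and 173 in shSRPK1 (0.86 ± 0.17, edgeR adjusted p = 0.0231) with library 1 above library 2.

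Of 40 TGF-beta and BMP signalling genes 8 rose and 1 fell, but the hairpin libraries disagreed over the list, with medians of -0.18 and 0.20. In 8 of the 40, library 1 lay below NT and library 2 above it, against 9.54% of all tested genes. In 2 it was the other way round, against 8.87%. INHBA, the subunit of activin A, had 8.16 and 12.1 CPM in NT against 82.5 and 67.9 in shSRPK1 (2.88 ± 0.20, edgeR adjusted p = 0.00124) and was called in every fit. TGFBI, a secreted matrix protein named for its induction by TGF-beta, had 4348 and 5107 CPM in NT against 9164 and 8031 in shSRPK1 (0.86 ± 0.17, edgeR adjusted p = 0.0241). The co-receptor TGFBR3 fell from 21.1 and 18.9 to 8.005 and 8.89 CPM (-1.24 ± 0.17, edgeR adjusted p = 0.00940). Among VEGF ligands and other angiogenic factors 3 of 15 rose. VEGFC, a growth factor of lymphatic vessels, had 20.6 and 20.5 CPM in NT against 57.6 and 65.2 in shSRPK1 (1.58 ± 0.12, edgeR adjusted p = 0.00134). It too was called in every fit, and NRP1 and SEMA3A rose by 0.57 ± 0.13 and 0.99 ± 0.18. VEGFA, whose splicing SRPK1 is known to influence, had 371 and 465 CPM in NT against 716 and 609.6 in shSRPK1 in total and was not called (0.66 ± 0.17, edgeR adjusted p = 0.0519). Gene counts do not show its isoforms.

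Receptor kinases and ERK output genes moved both ways. Of 22 EGF receptor family and other receptor kinases 2 rose and 4 fell. EGFR, often amplified in glioblastoma, had 304 and 318 CPM in NT against 522 and 468 in shSRPK1 (0.67 ± 0.15, edgeR adjusted p = 0.0357). PDGFRB had 170.0 and 163 CPM in NT against 296 and 223 in shSRPK1 (0.64 ± 0.15, edgeR adjusted p = 0.0374). KIT, the receptor of stem cell factor, fell from 12.3 and 13.1 to 3.93 and 2.77 CPM (-1.91 ± 0.23, edgeR adjusted p = 0.00631), and INSR, FGFR3 and TYRO3 fell (-1.16 ± 0.20, -1.15 ± 0.28 and -0.67 ± 0.17). ERK output genes gave 8 rises and 4 falls among 32. The immediate-early genes JUN and IER2 rose by 0.78 ± 0.12 and 1.01 ± 0.14, and the feedback inhibitors SPRY4 and SPRY2 fell (-0.99 ± 0.15 and -0.66 ± 0.14).

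The 15 largest falls were mostly in genes of low level, and few belonged to a list. RIMS3, of the presynaptic active zone, had 33.01 and 29.9 CPM in NT against 5.44 and 6.98 in shSRPK1 (-2.35 ± 0.17, edgeR adjusted p = 0.00124). Keratin KRT7 had 12.9 and 13.9 CPM in NT against 2.95 and 4.02 in shSRPK1 (-1.96 ± 0.20, edgeR adjusted p = 0.00369). RIMS3 and KRT7 were called in every fit, as were LYPD1 (68.4 and 71.5 to 25.8 and 24.96 CPM, -1.46 ± 0.12) and HS6ST3, which adds sulphate to heparan chains (208 and 208 to 85.3 and 82.9 CPM, -1.30 ± 0.10). In HS6ST3 the untreated pair and the hairpin pair were each nearly equal. CLGN, a chaperone of the endoplasmic reticulum best known from testis, fell less evenly, from 90.8 and 79.1 to 9.97 and 27.9 CPM (-2.18 ± 0.45, edgeR adjusted p = 0.0460), and had the widest distance between hairpin libraries of any of the 15. RNF157 went from 10.7 and 5.72 to 1.89 and 2.30 CPM (-1.96 ± 0.35), and GNAL from 19.9 and 15.4 to 3.40 and 5.93 CPM (-1.93 ± 0.28). Of the 44 tested neuronal and synaptic genes 4 fell, RIMS3, SYT11, REEP1 and HOMER1, and 1 rose, NLGN2.

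Genes with large departures in opposite directions were mostly outside the lists. INHBE, a subunit of activin E, had 6.50 and 4.17 CPM in NT against 1.06 and 12.2 in shSRPK1 (0.29 ± 0.99, edgeR adjusted p = 0.877). The tight junction protein CLDN1 had 6.80 and 9.53 CPM in NT against 2.95 and 19.6 in shSRPK1 (0.41 ± 0.83, edgeR adjusted p = 0.789). INHBE and CLDN1 were both lower in library 1 and higher in library 2. RFX8 (1.94 and 2.33 CPM in NT against 5.29 and 0.861 in shSRPK1), SHROOM4 (1.84 and 2.75 CPM in NT against 5.14 and 0.956 in shSRPK1) and MANCR (0.971 and 1.55 CPM in NT against 4.76 and 0.574 in shSRPK1) went the other way. These 5, with L3MBTL2-AS1, NRGN, CTH, CMKLR2 and 7SK, had the largest departures to either side, and none of the 10 was called. Among called genes not in the interferon list, the widest distances were those of CLGN, ANKRD37, IL7R and DOK3. IL7R had 3.30 and 3.53 CPM in NT against 22.9 and 8.51 in shSRPK1 (2.21 ± 0.46, edgeR adjusted p = 0.0337), higher in library 1.

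Marker lists of the glioma line and of other cells were read in the same way. All 10 glioma line markers were tested, and 5 of them rose in shSRPK1. Their sum was 7502 and 8289 CPM in NT against 10561 and 8082 in shSRPK1, so library 2 lay within NT. In 3 of the 10 the hairpin libraries lay on opposite sides of NT. GFAP, the astrocyte filament, had 0, 0, 1 and 0 reads in NT 1, NT 2, shSRPK1 1 and shSRPK1 2, so this filament was near 0 in the line. Of 12 astrocyte markers 5 passed the filter, SOX9 rose and FGFR3 fell, and the list summed to 124 and 135 CPM in NT and 213 and 190.5 in shSRPK1. Of 10 oligodendrocyte markers 3 passed (94.8 and 97.0 CPM in NT and 119.8 and 119.6 in shSRPK1), and of 10 neuron markers 4 passed (18.8 and 21.7 against 20.8 and 20.4). None of these 7 was called. No erythroid or platelet marker of 9 and no hepatocyte marker of 8 passed the filter, and of 14 microglia and leukocyte markers 1 did. Muscle markers summed to 69.1 and 71.8 CPM in NT and 76.7 and 83.8 in shSRPK1, far below the oeSRPK1 libraries. Their list medians were 0.00 in shSRPK1 1 and 1.25 in shSRPK1 2, and of 16 tested 0 were called, against 3 called higher with a replicate block. As the sums moved little, the median of 1.25 rests on members of low level in the NT and shSRPK1 libraries.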

How the data were processed

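Poly(A) RNA of 2 NT and 2 shSRPK1 libraries was analysed from tables, 1 for each library, of raw counts of reads per gene as deposited by the authors. The 2 oeSRPK1 libraries shared the filter, the scaling and the estimate of the spread. The submitters' processing notes name FastQC, Trimmomatic, STAR 2.5.3 and the build hg38. The counting tool, annotation release and strand setting are not given in the sources used here, so antisense and overlapping genes cannot be separated. The 5 entries of each table that name no gene entered neither the library sizes nor the tests (no feature 8.22% to 11.1% of the entries of NT and shSRPK1 libraries). A gene name table gave symbols for 41124 of 60483 identifiers, and GENCODE 29 for another 15629. GENCODE 29 gave gene positions, and RefSeq gave promoters.

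In R 4.3.3, edgeR 4.0.16 kept genes by filterByExpr (minimum count 10, minimum total 15), scaled by TMM, and ran glmQLFit (robust) and glmQLFTest over all 6 libraries with Benjamini-Hochberg adjustment over 14732 genes. CPM was scaled by TMM, with a prior count of 2 on the log2 scale. The limit that 0 reads allow, 3 counts, came to 0.220 to 0.303 CPM in the NT and shSRPK1 libraries, for counting error only. Because 1 spread was shared, the fit allows less for the shSRPK1 pair, which differed most. Alternatives were DESeq2 1.42.0 and its size factors, upper-quartile scaling, no filter, a minimum CPM of 5 in 2 libraries, limma-voom (limma 3.58.1), the 4 libraries compared alone, a replicate block, each library left out, an adjusted p under 0.01 and a minimum of 2-fold, and, chosen after seeing the data, limma-voom with separate spreads for the groups. Deviations from the group means of same-numbered NT and shSRPK1 libraries correlated at 0.010 over genes. A value over all genes cannot show whether the numbers paired the samples. Replicate 2 exceeded replicate 1 for 58 of 68 interferon-stimulated genes in both groups. In the hypoxia list it did so for 36 of 40 genes in NT and 5 in shSRPK1. The fit was tested on simulated data.

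The comparison, the 48 pathway and 10 marker lists and the named genes were chosen with earlier results of these data known. Named were SRPK1, SRPK2 and CLK1 to CLK4, the 15 largest rises and falls among called genes (mean log2 CPM of at least 1, both hairpin libraries beyond both NT libraries), up to 6 called genes of smallest adjusted p from each list with at least 3 calls, the 10 genes of largest opposite departure and the 10 called genes of widest distance between hairpin libraries. Some were left out for length, and some are not reported here. Other members of lists were added as examples after their values were seen.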

Additional observations from a re-analysis of the deposited data

How the results depend on the processing

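Only 25 of the 1352 calls were made in all 15 other fits, so most counts are a statement about 6 libraries read together. Rises and falls numbered 89 and 40 with the NT and shSRPK1 libraries only, where 122 were called the same way with each hairpin library alone (1324 in the joint fit), and 1541 and 1075 without a filter. At an adjusted p under 0.01 they were 122 and 59 (176 the same way with each library), and with at least 2-fold 317 and 153 (319). Leaving out 1 library moved the rises from 24 to 2355, the falls from 5 to 2240 and the shared calls from 29 to 255. The lowest counts came without NT 1, and the highest without shSRPK1 2. A replicate block gave 624 rises, 382 falls and 986 shared calls, and limma-voom with separate spreads for the groups 713 and 394. SRPK1 differed from NT by -0.369 to -0.0619 over the libraries left out, and passed without shSRPK1 2 alone (adjusted p = 0.0208). SRPK2, at 0.18, turned to -0.011 without shSRPK1 2, and was 0.359 without shSRPK1 1. Of 213 named calls, 208 were kept under upper-quartile scaling, 206 in DESeq2, 183 with the block, 46 with 4 libraries, 22 without NT 1 and 28 without NT 2, and no named call turned direction in any of these. The cause of these losses was not tested.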
